A study of Rattus norvegicus with 4 samples.

Results

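The DNA replication and nucleotide supply genes are 37 protein-coding genes whose products copy the genome in S phase or make the deoxynucleotides for it. They were taken by gene symbol from a list that was chosen with earlier results of these data known. All 37 were found among the 24005 genes of the deposited rat count table, and all 37 were among the 15282 genes that passed the filter on low counts. They were measured by RNA sequencing of joint cartilage from Sprague Dawley rats, an outbred laboratory stock. All were males of 8 to 12 weeks with a body weight of 140 to 230 g. The osteoarthritis group holds 2 libraries labelled osteoarthritis and also labelled with the treatment XGS, the herbal preparation Xiaogu San. According to the series' text, monosodium iodoacetate, which blocks glycolysis in chondrocytes, was used to induce the disease. The control group holds 2 libraries labelled healthy, with the treatment label control. Disease and treatment therefore cannot be told apart, and no untreated osteoarthritis sample was analysed here. The series' text also speaks of normal mice, while the labels of all 4 libraries say rat, and a species difference was not tested. The labels do not state whether each library is a different animal, so the p-values below reflect how far these libraries differ, possibly for technical reasons.

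Copying of the genome is prepared in G1, when the origin recognition complex, Cdc6 and Cdt1 load the MCM2-7 helicase on DNA. In S phase Cdc45 and the GINS complex turn the loaded ring into an active helicase. Primase and the DNA polymerases then copy both strands behind it, while Fen1 and Lig1 join the fragments of the lagging strand. The PCNA clamp holds some of these polymerases on DNA. Ribonucleotide reductase, thymidylate synthase, thymidine kinase and dUTPase supply the building blocks. The genes are known for high mRNA levels in dividing cells, and E2F transcription factors are known to bind many of their promoters. In adult articular cartilage most chondrocytes do not divide, whereas growth plate and bone marrow hold dividing cells.

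Most of these genes had fewer reads in osteoarthritis cartilage. Of the 37, 35 lay below both control libraries in both osteoarthritis libraries, a position that 26.5% of all genes tested held. The fold changes of these 35 ran from a log2 value of -3.53 for Tk1 to -0.45 for Pola1. A log2 fold change of -2 or less was seen for 15 of them, a value between -2 and -1 for 15, and a value above -1 for 5. The other 2, Lig1 and Rfc1, lay above both controls, as did 30% of all genes. The median log2 fold change of the 37 genes, osteoarthritis over control, was -1.84, against 0.15 for all genes tested. Their CPM values, read counts scaled to library size, summed to 475.2 and 592.0 in the osteoarthritis libraries, against 1652.5 and 2145.5 in the control libraries. Both osteoarthritis sums were thus far below both control sums, at 25.02% and 31.2% of the control mean.

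No single gene passed the test. The quasi-likelihood test of edgeR, with Benjamini-Hochberg adjustment over all genes and a threshold of 0.05, called 0 of the 37 lower and 0 higher, as it called 0% of all genes in each direction. The smallest adjusted p of a member was 0.0824 and the largest 0.596. At an unadjusted p under 0.05, 31 members were lower, against 11.2% of all genes, and Lig1 was the 1 that was higher, against 12.2%. DESeq2, a second count model, called 23 members lower, where it called 8.26% of all genes lower, and it called Lig1 higher, where it called 7.24% higher. Single-gene statements below therefore give values from edgeR, some with its adjusted p, and none of the genes named passed the threshold in this fit. An exact permutation test of 2 libraries against 2 cannot go below p = 0.33.

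**Figure D1:**
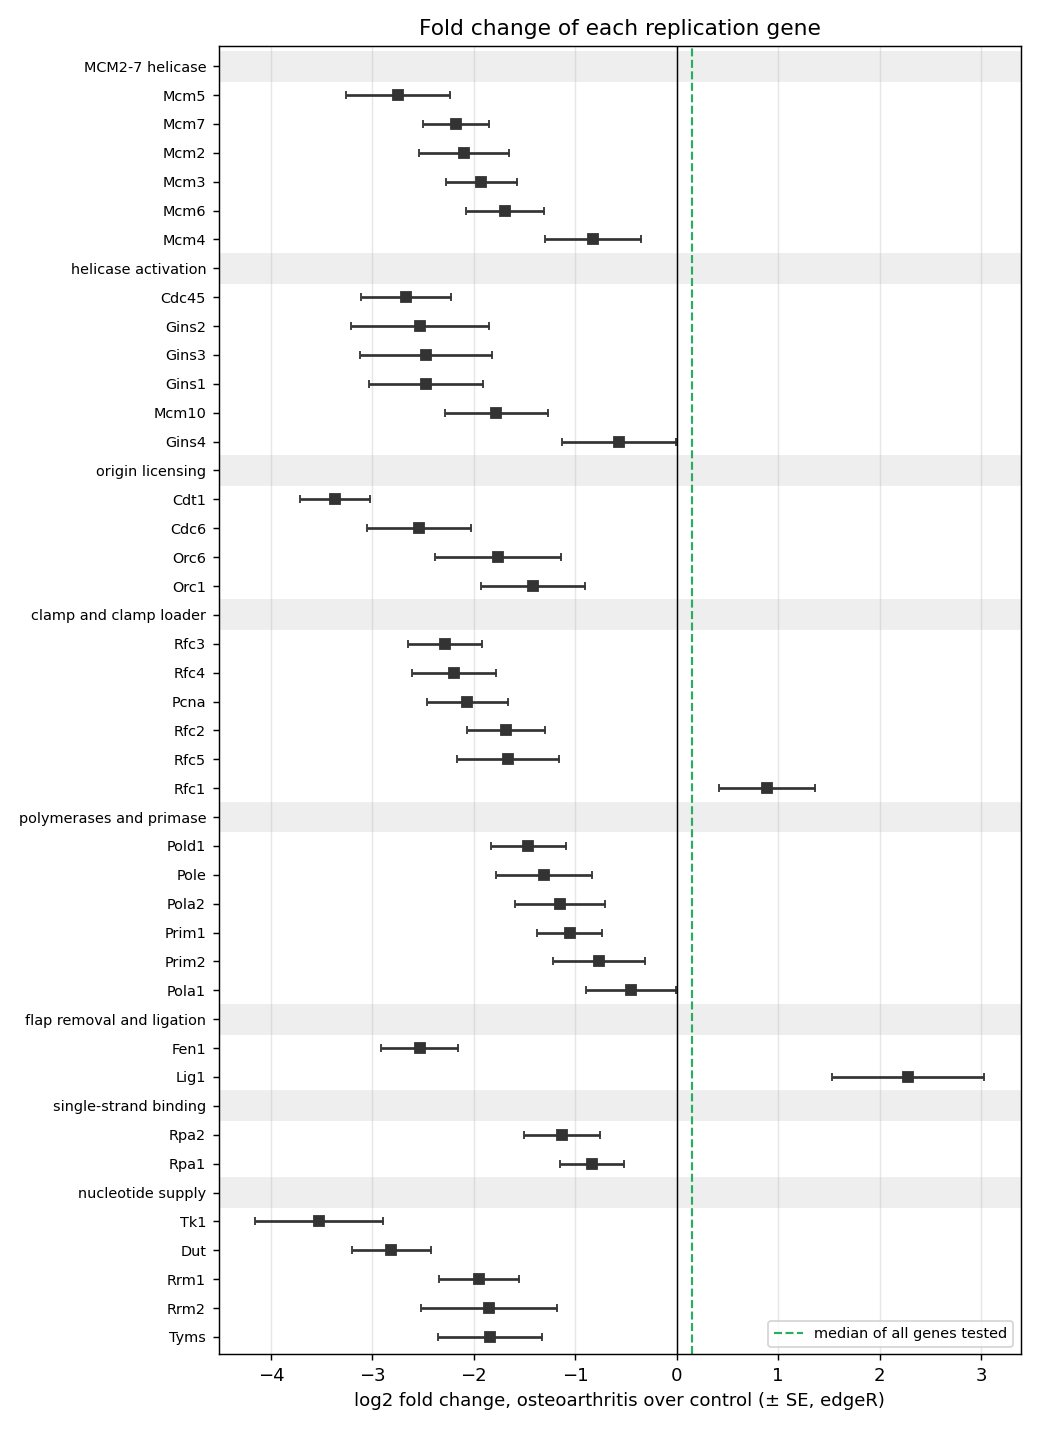
Log2 fold change of each of the 37 genes, osteoarthritis over control, with its standard error from edgeR, ordered by role. Of the 37 points, 35 lie left of 0, Lig1 and Rfc1 lie right of it, and the dashed line marks the median of all genes at 0.15.

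The libraries differed in more than these genes. Totals were 24492412 and 25994449 counts in osteoarthritis and 28156020 and 28270779 in control. Globin genes took 0.218% and 0.552% of counts in the osteoarthritis libraries, against 12.0% and 12.4% in the control libraries. Each of the 37 members had 33 to 6244 counts in every library, so none rests on single reads. Chondrocyte markers were found in all 4 libraries, with none of 11 at 0. Col2a1 encodes type II collagen, the chief fibre of cartilage. Its level was 3431 and 385 CPM in osteoarthritis, against 13919 and 26813 CPM in control. Acan, the main cartilage proteoglycan, had 70.9 and 2703 CPM in osteoarthritis, against 493 and 587 CPM in control, so the osteoarthritis libraries lay on either side of both controls.

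Cdt1, which helps load the helicase, stood out among the 4 licensing genes. It had 6.75 and 8.04 CPM in osteoarthritis, against 68.5 and 84.0 CPM in control. The 2 osteoarthritis libraries were close to each other and far under both controls, a log2 fold change of -3.37 ± 0.35 (SE, adjusted p = 0.0824). Orc1, the largest subunit of the origin recognition complex, had 6.003 and 4.54 CPM in osteoarthritis, against 15.4 and 12.8 CPM in control. The groups were again apart, by less (log2 fold change -1.42 ± 0.51, adjusted p = 0.191). Cdc6, the ATPase that recruits the helicase with Cdt1, had a log2 fold change of -2.54, and Orc6, the smallest subunit, of -1.76. The median of the 4 was -2.15. Gmnn, the inhibitor of Cdt1 and no member of the set, had 1.25 and 2.85 CPM in osteoarthritis, against 13.2 and 20.5 CPM in control.

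Promoters of these genes were taken from RefSeq, on assembly GRCr8. The window of 300 bases, 250 before the annotated start and 50 after it, was found for 32 of the 37 genes. Cdc6, Gins4, Mcm4, Orc1 and Rrm2 had no entry. Windows were searched on both strands for 4 words known as E2F binding words, TTTCCCGC, TTTGGCGC, TTTCGCGC and TTTGCCGC, and words that overlap on opposite strands were counted separately. At least 1 word was found in 14 of the 32 windows, or 43.75%, against 559 of 18999 protein-coding genes, or 2.94%. The share was thus not particular to the set. Of 38 windows of other replication factors, a list described below, 16, or 42.1%, held a word too. All 5 MCM windows searched held a word. The 5 windows below belong to the 3 members with the smallest p among those with a word, Cdt1, Mcm7 and Rfc3, to Lig1, added after its values were seen, and to Pola1, whose fold change was nearest 0. Each is printed 5′ to 3′ on the strand of its gene, with the E2F words in capitals, and positions count from 1 at the annotated start. They lie at chr19:67528999-67529298 (plus strand) for Cdt1, chr12:22163129-22163428 (minus) for Mcm7, chr12:5836318-5836617 (plus) for Rfc3, chr1:83242920-83243219 (plus) for Lig1 and chrX:62342306-62342605 (minus) for Pola1.
Cdt1: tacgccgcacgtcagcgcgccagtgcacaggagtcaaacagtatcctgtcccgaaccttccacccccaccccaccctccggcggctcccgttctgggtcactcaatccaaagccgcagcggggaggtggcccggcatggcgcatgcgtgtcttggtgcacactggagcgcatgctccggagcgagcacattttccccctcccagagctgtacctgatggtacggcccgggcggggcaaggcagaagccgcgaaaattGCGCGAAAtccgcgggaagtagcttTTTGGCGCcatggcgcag
Mcm7: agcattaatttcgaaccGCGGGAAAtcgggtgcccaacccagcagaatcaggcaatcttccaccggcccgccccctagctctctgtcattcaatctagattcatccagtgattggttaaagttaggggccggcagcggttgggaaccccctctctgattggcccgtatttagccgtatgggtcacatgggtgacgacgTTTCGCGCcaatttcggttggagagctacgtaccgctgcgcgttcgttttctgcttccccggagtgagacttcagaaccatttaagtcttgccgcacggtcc
Rfc3: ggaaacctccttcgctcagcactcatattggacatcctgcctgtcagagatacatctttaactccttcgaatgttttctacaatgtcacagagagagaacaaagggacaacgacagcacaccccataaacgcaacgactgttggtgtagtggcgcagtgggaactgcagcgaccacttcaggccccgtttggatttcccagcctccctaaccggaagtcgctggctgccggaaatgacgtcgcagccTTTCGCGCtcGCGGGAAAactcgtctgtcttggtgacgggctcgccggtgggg
Lig1: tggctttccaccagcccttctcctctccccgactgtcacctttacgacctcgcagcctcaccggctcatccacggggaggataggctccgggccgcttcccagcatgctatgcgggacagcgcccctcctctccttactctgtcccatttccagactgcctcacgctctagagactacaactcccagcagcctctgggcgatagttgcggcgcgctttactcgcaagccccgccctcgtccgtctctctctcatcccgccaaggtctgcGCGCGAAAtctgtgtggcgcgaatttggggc
Pola1: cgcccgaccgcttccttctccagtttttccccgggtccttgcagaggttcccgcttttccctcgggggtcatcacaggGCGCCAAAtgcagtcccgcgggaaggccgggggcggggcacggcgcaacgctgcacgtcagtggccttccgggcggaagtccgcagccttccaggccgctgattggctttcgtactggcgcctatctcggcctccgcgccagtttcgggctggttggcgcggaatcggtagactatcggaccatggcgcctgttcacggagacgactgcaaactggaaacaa

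In Cdt1 the words began at positions 8 and 33, and in Rfc3 at -3 and 8. Mcm7 held them at -233 and -52. Lig1, higher in osteoarthritis, and Pola1, with the smallest difference, held a word too, at 20 and at -172. A word in the window was thus no mark of the lower genes alone. In Mcm2, Mcm5, Mcm6 and Gins1, pairs of words overlapped on opposite strands. In the 100 bases before the start alone, 6 of the 32 windows, or 18.8%, held an E2F word, against 1.13% of all. The other replication factors stood at 18.4% there. The shorter pattern TTTNGCGC was found in 37.5% of member windows and 1.74% of all, and the word CCAAT in 62.5% and 39.8%. TTTGAA, the cell cycle homology region of mitotic genes, was in 9.38% of member windows and 18.1% of all. Of 23 mitosis genes searched, 16 held TTTGAA and 1 held an E2F word. A match is a run of letters in a window, not a measured binding site.

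The 6 subunits of the MCM2-7 ring, the motor that unwinds DNA, all lay below both controls. Mcm7 had 25.6 and 28.2 CPM in osteoarthritis, against 106 and 138 CPM in control. Its 2 groups were well apart (log2 fold change -2.18 ± 0.33, adjusted p = 0.0835). Mcm4 had 19.0 and 37.8 CPM in osteoarthritis, against 38.6 and 62.1 CPM in control. The higher osteoarthritis library nearly reached the lower control, and the log2 fold change was -0.83 ± 0.47 (adjusted p = 0.354). For the others the log2 fold change was -2.74 for Mcm5, -2.10 for Mcm2, -1.93 for Mcm3 and -1.69 for Mcm6. The median of the 6 was -2.01.

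Levels per length show how the ring's mRNAs stood to each other, in FPKM, which scales counts to gene length and library total. Mcm7 was the highest in all 4 libraries. The lowest was Mcm5 in both osteoarthritis libraries, at 3.17 and 5.31 FPKM, and Mcm4 in both controls, at 11.7 and 17.2 FPKM. The ratio of Mcm4 to Mcm5 was accordingly 2.17 and 1.91 in osteoarthritis, against 0.483 and 0.557 in control, and the 2 groups did not overlap. The highest subunit exceeded the lowest by a ratio of 4.01 and 1.95 in osteoarthritis, against 3.76 and 3.04 in control. The proteins form a ring with 1 copy of each subunit, and mRNA levels say nothing of how many rings were made.

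Of the 6 helicase activation genes, all lay below both controls, with a median log2 fold change of -2.47. Cdc45, the factor that joins MCM and GINS, had 4.10 and 3.59 CPM in osteoarthritis, against 22.2 and 26.8 CPM in control. Both groups were tight and apart (log2 fold change -2.67 ± 0.45, adjusted p = 0.0835). Gins4, a GINS subunit, had 5.60 and 5.79 CPM in osteoarthritis, against 8.83 and 8.02 CPM in control. The groups were close without overlap (log2 fold change -0.57 ± 0.56, adjusted p = 0.596). The other GINS subunits had log2 fold changes of -2.53 for Gins2, -2.47 for Gins1 and -2.47 for Gins3, and Mcm10, a replication initiation factor, had -1.78. Per length, Gins4 was the highest GINS subunit in osteoarthritis, at 6.24 and 4.77 FPKM, and Gins1 the highest in control, at 12.3 and 16.6 FPKM. Gins2 was the lowest in all 4 libraries. Its gene overlaps Gse1 in RefSeq, and overlapping reads cannot be told apart here. Gse1 had a log2 fold change of -0.59.

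**Figure D2:**
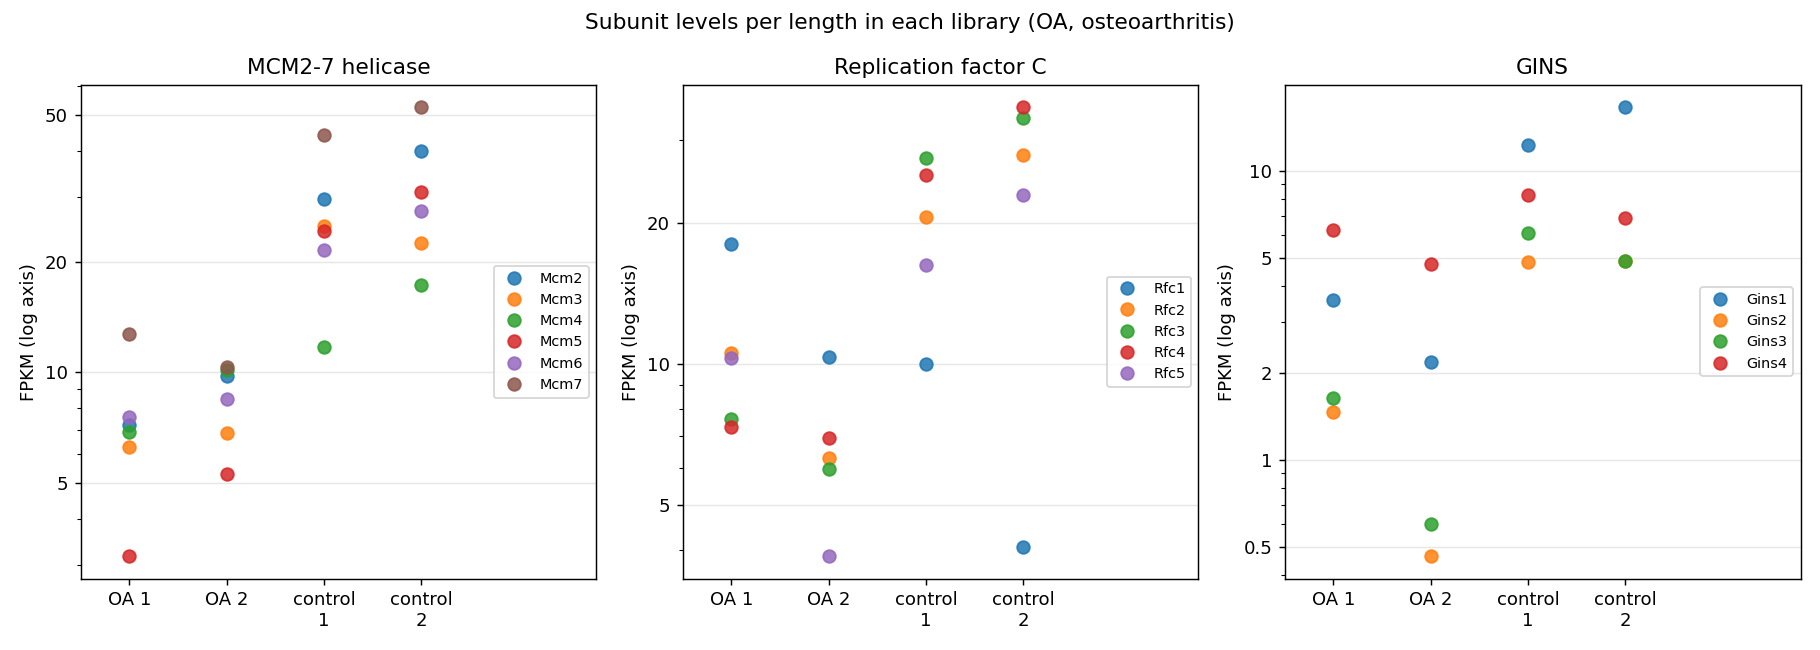
Level of each subunit in FPKM (log axis) in the 2 osteoarthritis (OA) and 2 control libraries for the MCM2-7 helicase, replication factor C (the clamp loader) and GINS, with 1 colour per subunit. Rfc1 and Gins4 are the highest of their complexes in both osteoarthritis libraries, whereas Mcm7 is the highest MCM subunit in all 4.

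The clamp and 4 of the 5 loader subunits lay below both controls, and the large loader subunit lay above. Pcna, the ring that holds polymerases on DNA, had a log2 fold change of -2.06 and 26.9 and 41.2 CPM in osteoarthritis, against 116 and 169 CPM in control. Rfc3, a small subunit of the loader that opens this ring, had 8.11 and 8.56 CPM in osteoarthritis, against 34.9 and 46.5 CPM in control. Its groups were clearly apart (log2 fold change -2.29 ± 0.36, adjusted p = 0.0835). The other small subunits had log2 fold changes of -2.19 for Rfc4, -1.68 for Rfc2 and -1.66 for Rfc5. Rfc1, the large subunit particular to the PCNA loader, had 61.9 and 48.1 CPM in osteoarthritis, against 41.1 and 18.3 CPM in control. The lower osteoarthritis library was only a little above the higher control, and the log2 fold change was 0.89 ± 0.48 (adjusted p = 0.324). Over the 4 fits that each left out a library, its log2 fold change ran from 0.43 to 1.54, the highest without control replicate 1.

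The loader's subunits therefore stood in a different order in the 2 groups. Per length, Rfc1 was the highest of the 5 in osteoarthritis, at 18.0 and 10.3 FPKM, and the lowest in control, at 10.0 and 4.06 FPKM. The ratio of Rfc1 to Rfc4 was 2.46 and 1.49 in osteoarthritis, against 0.396 and 0.115 in control. The 4 small subunits kept close to each other within a library, their highest exceeding their lowest by a ratio of 1.44 and 1.78 in osteoarthritis, against 1.69 and 1.54 in control.

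The 6 polymerase and primase genes lay below both controls by less, with a median log2 fold change of -1.10. Pold1, the catalytic subunit of polymerase delta, had 12.9 and 18.5 CPM in osteoarthritis, against 37.7 and 49.0 CPM in control. No library of one group reached the other (log2 fold change -1.46 ± 0.37, adjusted p = 0.124). Pola1, the catalytic subunit of polymerase alpha, had 10.1 and 13.7 CPM in osteoarthritis, against 14.4 and 18.1 CPM in control. Its groups nearly touched (log2 fold change -0.45 ± 0.44, adjusted p = 0.594). The log2 fold changes were -1.31 for Pole, the catalytic subunit of polymerase epsilon, -1.15 for Pola2, the second subunit of polymerase alpha, and -1.06 and -0.77 for the primase subunits Prim1 and Prim2. Per length, the order Pola1, Prim2, Pola2, Prim1 from lowest to highest was the same in all 4 libraries. DESeq2 called 1 of the 6 lower, where it called 8.26% of all genes lower, and 6 genes are too few to compare these shares.

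Of the subunits of replication protein A, which coats single-stranded DNA, 2 were members and both lay below both controls. Rpa2 had 11.4 and 15.8 CPM in osteoarthritis, against 27.1 and 32.5 CPM in control (log2 fold change -1.13 ± 0.38, adjusted p = 0.174). Rpa1 had 32.0 and 26.2 CPM in osteoarthritis, against 47.2 and 56.4 CPM in control (log2 fold change -0.83 ± 0.32, adjusted p = 0.203). Both genes kept the groups apart, and DESeq2 called neither. Per length, Rpa1 stood at 15.5 and 9.42 FPKM in osteoarthritis and 19.3 and 21.0 FPKM in control. Rpa2 stood at 9.73 and 9.96 FPKM in osteoarthritis and 19.4 and 21.2 FPKM in control, so the pair was nearly level in both controls.

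The pair that finishes lagging strand fragments lay on opposite sides of control. Fen1, the nuclease that trims the flap, had 7.70 and 10.2 CPM in osteoarthritis, against 43.8 and 60.03 CPM in control. The groups were far apart (log2 fold change -2.53 ± 0.38, adjusted p = 0.0835). Lig1, the ligase that seals the nick, had 10.6 and 8.25 CPM in osteoarthritis, against 1.23 and 2.65 CPM in control. Every osteoarthritis library was above every control (log2 fold change 2.28 ± 0.75, adjusted p = 0.169). The value was 1.78 without control replicate 1 and 2.94 without control replicate 2. Its raw counts were 313 and 191 in osteoarthritis, against 35 and 69 in control, so the control values rest on few reads.

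Lig1 stood below Pcna and Lig3 in every library, by less in osteoarthritis. Pcna, which recruits Lig1 to the fork, exceeded it per length by a ratio of 7.58 and 14.9 in osteoarthritis, against 280.9 and 190.7 in control. Lig3, the ligase of mitochondria and of repair, had 24.6 and 46.0 CPM in osteoarthritis, against 21.6 and 25.4 CPM in control, and its groups overlapped. The ratio of Lig1 to Lig3 per length was 0.703 and 0.292 in osteoarthritis, against 0.0928 and 0.169 in control. In RefSeq the Lig1 gene overlaps Zswim9, and overlapping reads cannot be told apart. Zswim9 was not in the count table, so its level is not known here. Fen1 overlaps Tmem258, which had a log2 fold change of -0.97.

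**Figure D3:**
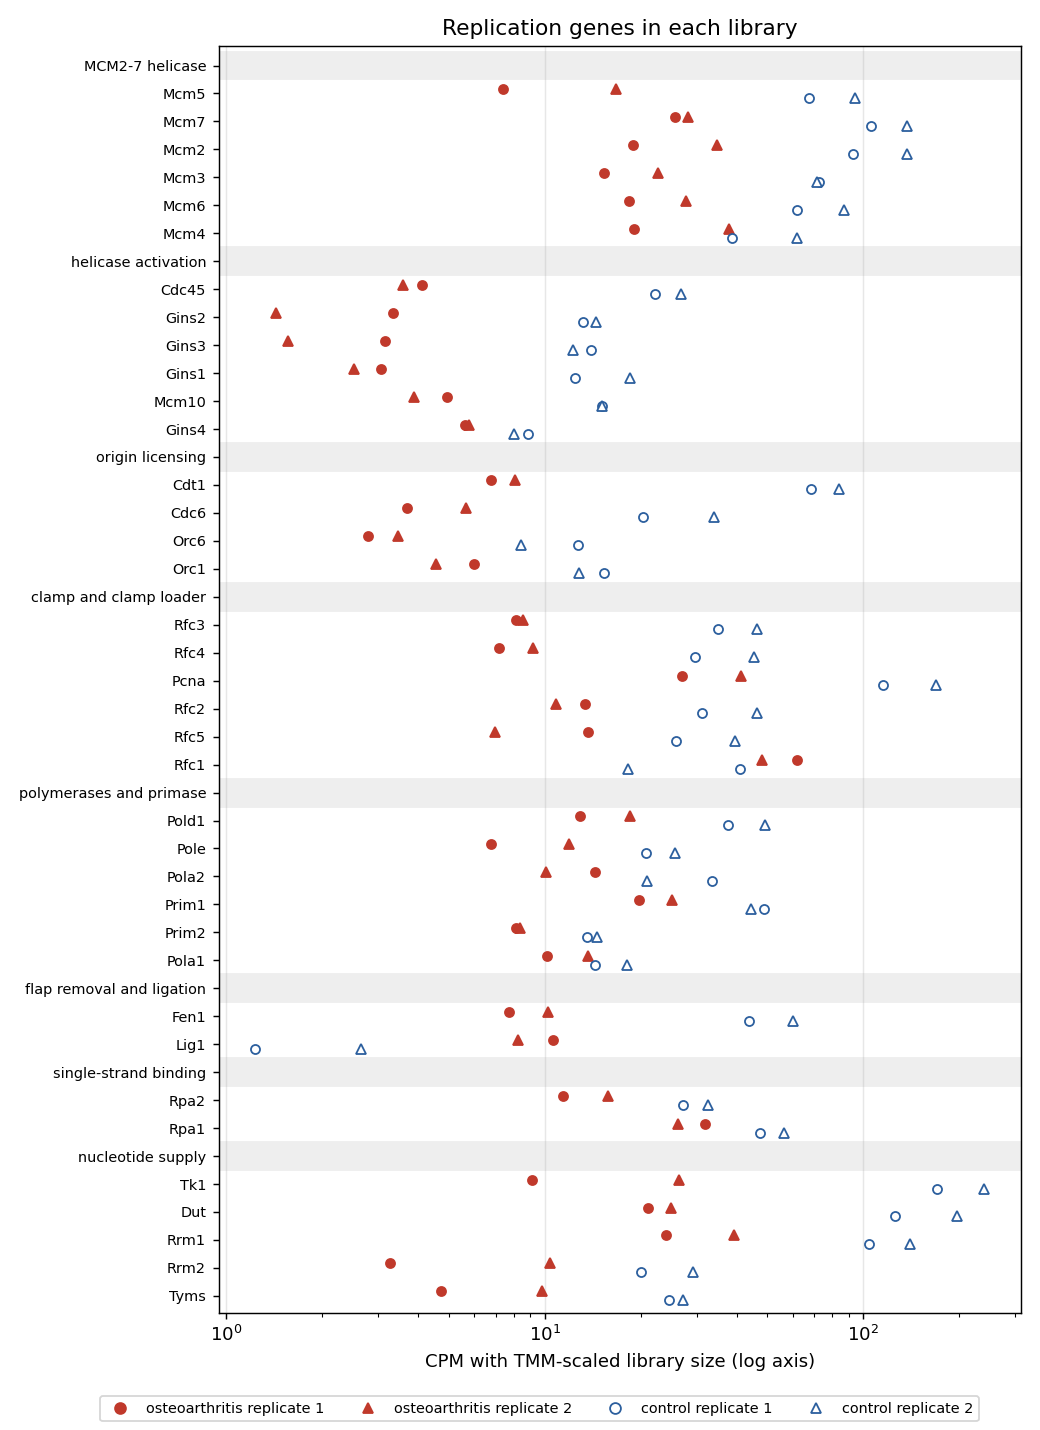
CPM of the 37 genes in each library (log axis), ordered by role, with filled symbols for osteoarthritis and open symbols for control. Both filled symbols lie left of both open ones for 35 genes and right of them for Lig1 and Rfc1.

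All 5 nucleotide supply enzymes lay below both controls, with a median log2 fold change of -1.95. The median was -1.68 without osteoarthritis replicate 1 and -2.91 without osteoarthritis replicate 2. Dut, the dUTPase that keeps uracil out of DNA, had 21.1 and 24.8 CPM in osteoarthritis, against 126 and 197 CPM in control. The osteoarthritis libraries were alike and well below both controls (log2 fold change -2.81 ± 0.39, adjusted p = 0.0824). Tk1, the thymidine salvage kinase of S phase, had 9.12 and 26.4 CPM in osteoarthritis, against 170 and 240 CPM in control. The groups were well apart, but the osteoarthritis libraries differed from each other. The log2 fold change was -3.53 ± 0.63 (adjusted p = 0.0858), with -2.99 without osteoarthritis replicate 1 and -4.48 without osteoarthritis replicate 2. Rrm2, the S phase subunit of ribonucleotide reductase, had 3.26 and 10.4 CPM in osteoarthritis, against 20.03 and 29.2 CPM in control. Its osteoarthritis libraries were also unlike (log2 fold change -1.85 ± 0.67, adjusted p = 0.193), and the value was -1.28 without osteoarthritis replicate 1 and -2.91 without osteoarthritis replicate 2. The Rrm2 gene overlaps Cys1, which had a log2 fold change of 1.75. Rrm1, the large subunit, had a log2 fold change of -1.95, and Tyms, which makes thymidylate, of -1.84.

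Some enzymes have counterparts that serve cells outside S phase. Rrm2b, the alternative small subunit used in repair and in resting cells, had 1.93 and 1.90 CPM in osteoarthritis, against 1.197 and 4.22 CPM in control, and its groups overlapped. The ratio of Rrm2 to Rrm2b per length was 0.802 and 2.61 in osteoarthritis, against 7.97 and 3.30 in control. Tk2, the mitochondrial thymidine kinase, had 15.9 and 10.8 CPM in osteoarthritis, against 34.7 and 29.5 CPM in control, and was the counterpart with the lowest p (log2 fold change -1.27 ± 0.38, adjusted p = 0.154). The ratio of Tk1 to Tk2 per length was 0.627 and 2.67 in osteoarthritis, against 5.34 and 8.84 in control. Of the 11 counterparts tested, 3 lay below both controls and 1 above, where 26.5% and 30% of all genes did, and the median log2 fold change was -0.22. Dck, the deoxycytidine kinase, had a log2 fold change of -1.17 and the mitochondrial single-strand binding protein Ssbp1 of -0.39. Lig3 stood at 0.58, the repair polymerase Polb at 0.64 and the mitochondrial polymerase Polg at 0.13.

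The members were not alone among replication genes. Of 44 other replication factors tested, 27 lay below both controls and 6 above, with a median log2 fold change of -0.91, and DESeq2 called 9 lower and 1 higher. Over all genes tested, 26.5% lay below and 30% above, and DESeq2 called 8.26% lower and 7.24% higher, shares that also apply to the counts that follow. Asf1b, a histone chaperone, had 2.48 and 4.11 CPM in osteoarthritis, against 30.02 and 47.5 CPM in control. Its log2 fold change was -3.56, with -3.04 for Gmnn and -1.73 for Chaf1a, the chromatin assembly subunit. Fold changes above 0 were seen for Top1, a topoisomerase also used in transcription, at 1.67, Rtel1, a helicase, at 0.69, and Orc4, an origin recognition subunit, at 0.65. Top1 and Orc4 lay above both controls, whereas the groups of Rtel1 overlapped. Among 31 other nucleotide synthesis enzymes the median was -0.41, with 13 below both controls and 3 above. Dctpp1, a dCTP pyrophosphatase, had a log2 fold change of -2.93, the kinase Nme1 of -1.35 and guanylate kinase Guk1 of -1.28. The CTP synthases Ctps1 and Ctps2 each stood at 0.82 and Impdh1, an enzyme of guanine nucleotide synthesis, at 0.55. Whether the 37 genes differed from the wider pathway was not tested.

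Of the 30 regulators of entry into S phase, 15 lay below both controls and 5 above, with a median log2 fold change of -0.65. E2f2, an E2F factor, had 16.3 and 33.4 CPM in osteoarthritis, against 214 and 224 CPM in control. It was far below control in both osteoarthritis libraries, at a log2 fold change of -3.14. Ccne1, a cyclin of the G1 to S transition, stood at -4.23 and Fbxo5, an inhibitor of the anaphase complex, at -2.04. The D cyclins lay on both sides of control. Ccnd2 had a log2 fold change of 1.43 and Ccnd1 of 1.13, while Ccnd3, named after its values were seen, stood at -2.20. Cdk6, a partner of the D cyclins, stood at 0.81. Of 28 mitosis genes, 26 lay below both controls and 0 above, with a median of -1.89. This median was -1.45 without osteoarthritis replicate 1 and -2.77 without osteoarthritis replicate 2. Cdk1, the mitotic kinase, stood at -3.12, Plk1, a spindle kinase, at -3.37 and Ube2c, a ubiquitin enzyme of anaphase, at -3.86. Cenpe, a kinetochore motor, at 0.03 and Anln, a cytokinesis scaffold, at 0.05 were the 2 whose groups overlapped.

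**Figure D4:**
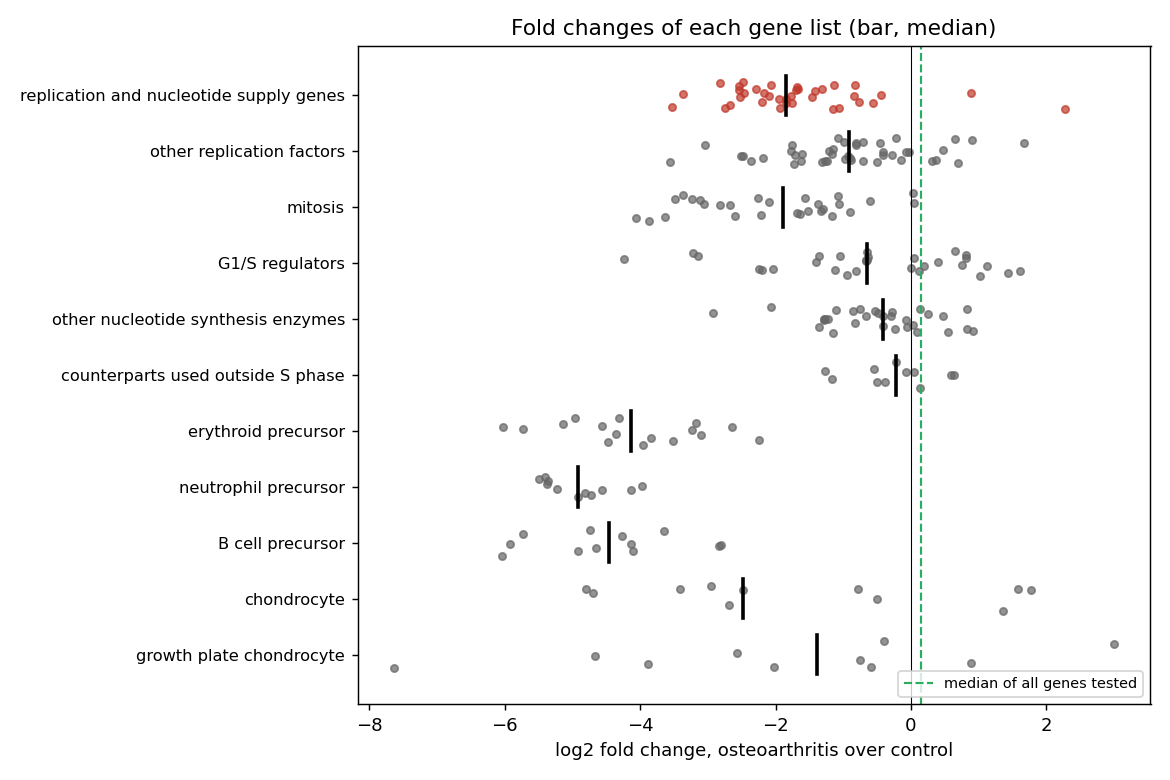
Log2 fold change, osteoarthritis over control, of every tested gene in the 37-gene set and in other gene lists, with a bar at each list's median. The set's median is -1.84 and that of the mitosis genes -1.89, and the blood cell precursor lists have medians under -4.

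Markers of marrow cells were lower alongside these genes. Of 16 erythroid precursor markers, 15 lay below both controls, and their CPM summed to 469.8 and 1320 in osteoarthritis, against 37726 and 32484 in control. Gata1 was at 0 in osteoarthritis replicate 1. All 11 neutrophil precursor markers tested, of 12 listed, lay below both controls, with sums of 119.8 and 608 in osteoarthritis, against 7592 and 11985 in control. All 12 B cell precursor markers did too, with sums of 26.5 and 43.4 in osteoarthritis, against 506 and 708 in control, and none was at 0. The median log2 fold changes were -4.13, -4.92 and -4.46. Their part in the result was not tested. In bulk tissue, fewer cells of a type and less RNA per cell cannot be told apart.

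Cartilage markers differed as well. Of 11 chondrocyte markers, 6 lay below both controls and 0 above, with sums at 13.9% and 34.6% of the control mean. Acan, Sox9 and Col11a1 were the 3 with a log2 fold change above 0, at 1.36, 1.58 and 1.77, and each was below both controls in osteoarthritis replicate 1 and above both in replicate 2. Of 10 growth plate chondrocyte markers, 5 lay below both and 1 above, with sums at 38.2% and 36.4%. Markers of fat, tendon and ligament set the 2 osteoarthritis libraries apart. Adipocyte markers summed to 714.8% of the control mean in osteoarthritis replicate 1 and 3.56% in replicate 2. Tendon and ligament markers stood at 16.2% and 364.9%. The summed osteoblast and osteocyte markers stood at 88.8% and 451.0%, but most of the list did not follow the sum. Of these 9 markers, 7 lay below both controls and 0 above, with a median log2 fold change of -4.18. Only 4 of the 9 were higher in osteoarthritis replicate 2 than in replicate 1. The part of these tissues in the result was not tested. The replication set stood at 25.02% and 31.2% and the mitosis genes at 17.4% and 33.7% of the control mean. Osteoarthritis replicate 2 was above replicate 1 by a median of 0.30 on the log2 scale over the 37 genes and of 0.86 over the mitosis genes. This median was 3.08 for the erythroid, 3.11 for the neutrophil and 0.36 for the B cell precursor markers. Members lay on both sides of 0, with a median of -0.30 for helicase activation and 1.04 for nucleotide supply. Of the 37 genes, 25 were higher in osteoarthritis replicate 2 than in replicate 1, and 28 were higher in control replicate 2 than in control replicate 1. Of all 15282 genes tested, 7860 and 7752 were higher in the same 2 comparisons.

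**Figure D5:**
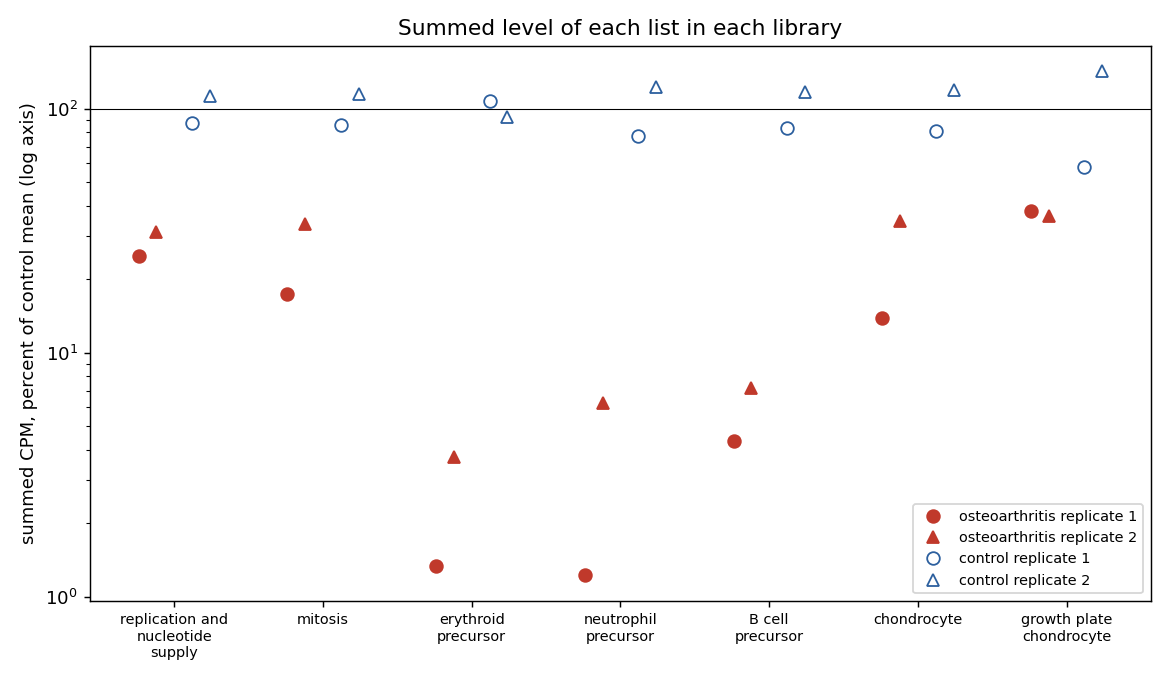
Summed CPM of each list in each library as a percent of the control mean (log axis), with filled symbols for osteoarthritis and open symbols for control. The replication set lies at 25.02% and 31.2% in osteoarthritis, and the erythroid, neutrophil and B cell precursor lists lie under 10%.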

How the data were processed

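Polyadenylated RNA of 4 rat cartilage libraries was sequenced. Per the submitters' processing notes, fastp and TopHat were used and the build is hg38, a human build, although the gene symbols are those of rat. The sources used here give neither the counting tool nor strandedness. The authors deposited raw read counts per gene and FPKM values. Each FPKM value above 0 was proportional to its deposited count, so FPKM is no independent measurement and was used only for levels per length.

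Counts were tested with edgeR 4.0.16 in R 4.3.3, with filterByExpr, TMM scaling, the two-sided quasi-likelihood F test and Benjamini-Hochberg adjustment over 15282 genes at 0.05. CPM were computed from TMM-scaled totals. Each standard error is the log2 fold change over the root of F. DESeq2 1.42.0, edgeR's likelihood ratio test, limma 3.58.1, other scalings and filters, and fits without each library were alternatives. The scripts were tested on simulated data. Figures were drawn with matplotlib 3.10.9.

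The members and gene lists were chosen with earlier results of these data known. Library values are given for the members with the smallest and largest p in each role group and for those not below both controls. Pcna, Tk1, Col2a1, Acan, Sox9 and Col11a1 were added after their values were seen. Up to 3 genes per direction with the smallest p, and at least 1 CPM on average in the group where they are higher, are named from each other list, with Rrm2b and Tk2 beside them. Of the 37 members, 11 have RefSeq pseudogenes named after them, none of which is in the count table. The gene lists also held Dna2, Adss2, Twnk and Cnmd, which were not found in the table. Each group has 2 libraries, and the number of reads behind a gene limits its precision.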

Additional observations from a re-analysis of the deposited data

How the results depend on the processing

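The counts of 35 members below and 2 above both controls were the same under each other scaling. Another test on the same scaled values could not change them. The fits with another filter or without a library were scaled anew and gave the same counts. Leaving out a library also makes such a position easier to hold. The 16 members with planned library values kept their direction in all 240 refits, of which 35 gave an adjusted p under 0.05, including quasi-likelihood fits with no filter and without either osteoarthritis library. On all 4 libraries with the filter, edgeR's quasi-likelihood test called 0 genes, against 2369 with DESeq2, 1943 with edgeR's likelihood ratio test and 1428 with no filter on low counts, and 0 to 2402 when 1 library was left out. The members called lower were 23 with DESeq2, 21 with the likelihood ratio test, 17 with no filter, and 0 to 20 when 1 library was left out. The 20 came without osteoarthritis replicate 1, 18 without osteoarthritis replicate 2, and 0 without either control. DESeq2 called 1 member higher. The median log2 fold change of the members, -1.84, was -1.57 on log2(FPKM + 1), a scale that understates the change of low genes, and ran from -2.04 to -1.71 when 1 library was left out. The median of Fen1 and Lig1, -0.13, turned to 0.00574 with library size alone and ran from -0.51 to 0.33 when 1 library was left out, 0.33 being the value without control replicate 2. It is the midpoint of 2 opposite values, and neither gene changed direction. The median of all genes was 0.15, against 0.27 with library size alone, 0.05 with upper quartile factors, 0.42 with no filter and -0.08 without osteoarthritis replicate 1. Where 1 library is left in a group, the fit takes its spread from the other group. No paired analysis was possible because the labels give no replicate numbers that the groups share.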
